A study of Mus musculus with 20 samples.

Results

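Ribosome biogenesis and nucleolar genes were followed in mouse CD4 T cells through a list of 40 protein-coding genes given by name. Of these, 39 were found as gene symbols in the count table and all 39 passed the expression filter. They stand among 22068 symbols in the table and 13309 genes past the filter, and Noc2l is not analysed here. RNA came from T cells sorted out of spleen and lymph node cells of C57BL/6 mice with a Foxp3-GFP reporter, aged 8 to 12 weeks, in 5 groups of 4 libraries. Rested CD5hi and rested CD5lo cells are GFP-negative, CD44-low naive cells from the upper and lower 15% of surface CD5, cultured for 22 hours with interleukin 7 at 10 ng per mL. Treg are GFP-positive cells, lysed directly after the sort without CD44 or CD5 gates. Fresh CD5hi and fresh CD5lo cells came through the same gates as the rested cells and were lysed directly. CD5 on naive cells follows the strength of contact with self-peptide on MHC, and the culture was meant to remove that contact, per the series text. All sorts left out cells with the activation marker CD69 or with surface B220, NK1.1, Ly6G, CD11b, CD11c or F4/80. The labels call the libraries biological replicates, so p-values measure the spread between these libraries. The cell type label opens with the same CD5lo wording for every sample, and the groups were taken from the titles.

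Ribosomes are built in the nucleolus around ribosomal RNA that RNA polymerase I transcribes from repeated rDNA genes. Box C/D and box H/ACA ribonucleoproteins, guided by small nucleolar RNAs, modify this precursor, the small subunit processome folds and cleaves it, and separate sets of factors mature the small and large subunits. In T cells these genes are known for rising after activation, and many are known targets of the transcription factor Myc.

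The start regions of 6 members are printed because 5 of them hold an E-box, the letters CACGTG that Myc and other factors of its class can bind, and the sixth, Wdr12, had the largest changes in the list. The windows run from 120 bases before to 30 bases after the RefSeq start, 5′ to 3′ on the gene's own strand, with coordinates of GRCm38.p6 and the E-box in capitals.
Nop2, chr6:125131763-125131912, plus strand: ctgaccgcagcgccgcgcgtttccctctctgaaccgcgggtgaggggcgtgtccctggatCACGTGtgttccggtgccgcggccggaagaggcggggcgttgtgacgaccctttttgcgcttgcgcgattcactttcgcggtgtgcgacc
Utp18, chr11:93885737-93885886, minus strand: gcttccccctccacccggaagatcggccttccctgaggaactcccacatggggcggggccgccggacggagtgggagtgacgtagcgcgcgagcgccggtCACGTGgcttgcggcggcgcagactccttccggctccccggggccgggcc
Pes1, chr11:3963855-3964004, plus strand: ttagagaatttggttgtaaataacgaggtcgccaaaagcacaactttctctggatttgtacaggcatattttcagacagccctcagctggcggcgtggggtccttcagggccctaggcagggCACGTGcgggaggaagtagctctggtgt
Wdr43, chr17:71616095-71616244, plus strand: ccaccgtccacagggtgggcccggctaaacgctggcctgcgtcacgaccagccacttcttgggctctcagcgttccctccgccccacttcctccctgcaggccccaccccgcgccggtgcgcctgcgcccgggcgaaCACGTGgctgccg
Tsr1, chr11:74897960-74898109, plus strand: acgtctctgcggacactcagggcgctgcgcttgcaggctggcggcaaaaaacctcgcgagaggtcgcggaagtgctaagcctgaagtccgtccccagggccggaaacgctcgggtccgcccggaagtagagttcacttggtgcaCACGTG
Wdr12, chr1:60098471-60098620, minus strand: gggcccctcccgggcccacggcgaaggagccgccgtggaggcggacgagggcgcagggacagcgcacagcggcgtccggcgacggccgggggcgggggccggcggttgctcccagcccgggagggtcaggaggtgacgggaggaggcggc
RefSeq entries of 300 bases, from 250 before to 50 after the start, were matched by symbol for 34 of the 39 members. Fbl, Npm1, Bop1, Rrs1 and Rrp12 were not matched. The 34 members had 37 entries. For 30 of these the first 20 bases from the start were found in an annotated transcript of the gene. The remaining entries were not followed up. CACGTG, which reads the same on both strands, stood in 7 of the 34, or 20.6%, against 11.6% of the 9250 genes past the filter with an entry. The E-box began at base -60 in Nop2, -20 in Utp18, 3 in Pes1, 18 in Wdr43, 25 in Tsr1, 38 in Utp20 and 41 in Mybbp1a, with negative positions before the start. For Wdr12 the window of the most upstream of its 3 entries is printed, and none of its entries held the letters. The letters TATAAA, searched on both strands, stood in 2 of the 34 members, or 5.88%, against 8.79% of genes past the filter. These matches describe the letters only, and their absence says nothing of a factor.

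Total counts ran from 38211406 to 64477566 per library, and the members took 0.368 to 0.490% of them. Levels are given as CPM, the count as a share of the library total on the usual scale, after trimmed-mean-of-M-values scaling. The sort markers followed the titles: Foxp3 stood at 679 to 768 CPM in Treg and at 20.9 to 30.9 CPM in naive libraries. Cd5 was higher in CD5hi than in CD5lo libraries without overlap, at 442 to 488 against 88.7 to 101 CPM when rested and at 905 to 1055 against 135 to 158 CPM when fresh. Cd3e, Cd3g, Cd4 and Lck together stood at 1935 to 2300 CPM in rested naive, 2186 to 2332 CPM in Treg and 2745 to 3131 CPM in fresh naive libraries. Of B cell markers, Cd74 averaged 67.9 CPM in Treg, 6.03 CPM in fresh CD5hi and 7.30 CPM in fresh CD5lo cells. Cd79b averaged 17.2 CPM in Treg, 0.699 CPM in fresh CD5hi and 0.738 CPM in fresh CD5lo cells. Ms4a1 and Cd79a averaged 1.47 and 3.85 CPM in Treg. The 6 myeloid markers together stood at 47.7 to 53.5 CPM in Treg, 34.5 to 47.9 CPM in rested and 39.8 to 43.7 CPM in fresh naive libraries, and most of each sum was Cst3. The 5 markers of CD8 and NK cells together stood at 6.96 to 8.46 CPM in rested CD5hi, 19.9 to 23.3 CPM in rested CD5lo, 15.9 to 18.6 CPM in Treg, 8.69 to 9.75 CPM in fresh CD5hi and 31.3 to 36.6 CPM in fresh CD5lo libraries, and most of each sum was Cd8b1. Cd8a averaged no more than 1.46 CPM and Ncr1 no more than 0.0374 CPM in any group. Klrb1c averaged 2.36 CPM in Treg, 0.124 CPM in fresh CD5hi and 0.187 CPM in fresh CD5lo cells.

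Some libraries stood apart from the others of their group. The labels describe both sexes as pooled, but 11 libraries (all 8 fresh ones and replicate 3 of rested CD5hi, rested CD5lo and Treg) held Y-linked transcripts at 326 to 405 CPM and Xist at 0.248 to 0.721 CPM. In the other 9, Y-linked transcripts stood at no more than 0.149 CPM and Xist at 755 to 1736 CPM. Rested replicates 1 and 2 were close to each other, with a chi-square per gene of 4.92 in CD5hi and 6.04 in CD5lo cells, against 25.5 to 88.2 and 13.9 to 70.1 for the other pairs of those groups. Each count of called members below is given with and without these libraries where they moved it by over 1.5 times. Counts of other gene lists, of markers and of libraries that did not overlap were not repeated without them.

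Treg had the lowest levels of ribosome biogenesis genes, and rested naive cells the highest sums. Summed over the 39 members, the level was 4788 ± 197 CPM in rested CD5hi, 4762 ± 91.6 CPM in rested CD5lo, 3574 ± 114 CPM in Treg, 4210 ± 99.7 CPM in fresh CD5hi and 4318 ± 135 CPM in fresh CD5lo libraries (SD, n = 4 each). All 8 rested libraries, at 4532 to 4965 CPM, lay above all 8 fresh ones at 4128 to 4516 CPM, and the 4 Treg libraries, at 3412 to 3676 CPM, lay below every naive library. The sum is weighted to the most abundant members, Npm1 and Ncl, and the counts per gene below give each member the same weight. In CD5lo cells Npm1 averaged 950 CPM rested and 643 CPM fresh, and Ncl 716 and 556 CPM. Over all members there, 20 log2 changes at rest were above 0 and 19 below. As a share of raw library totals, rested libraries stood at 0.436 to 0.490% and fresh ones at 0.420 to 0.448%, so these overlapped. The mean level was lowest in Treg for 32 of 39 members, against 33.7% of all genes tested. It was highest in rested CD5hi cells for 18 members, against 15.7% of all genes, and in fresh CD5lo cells for 14, against 19.6%. In bulk RNA, fewer cells with a transcript and less of it per cell cannot be told apart.

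**Figure D1:**
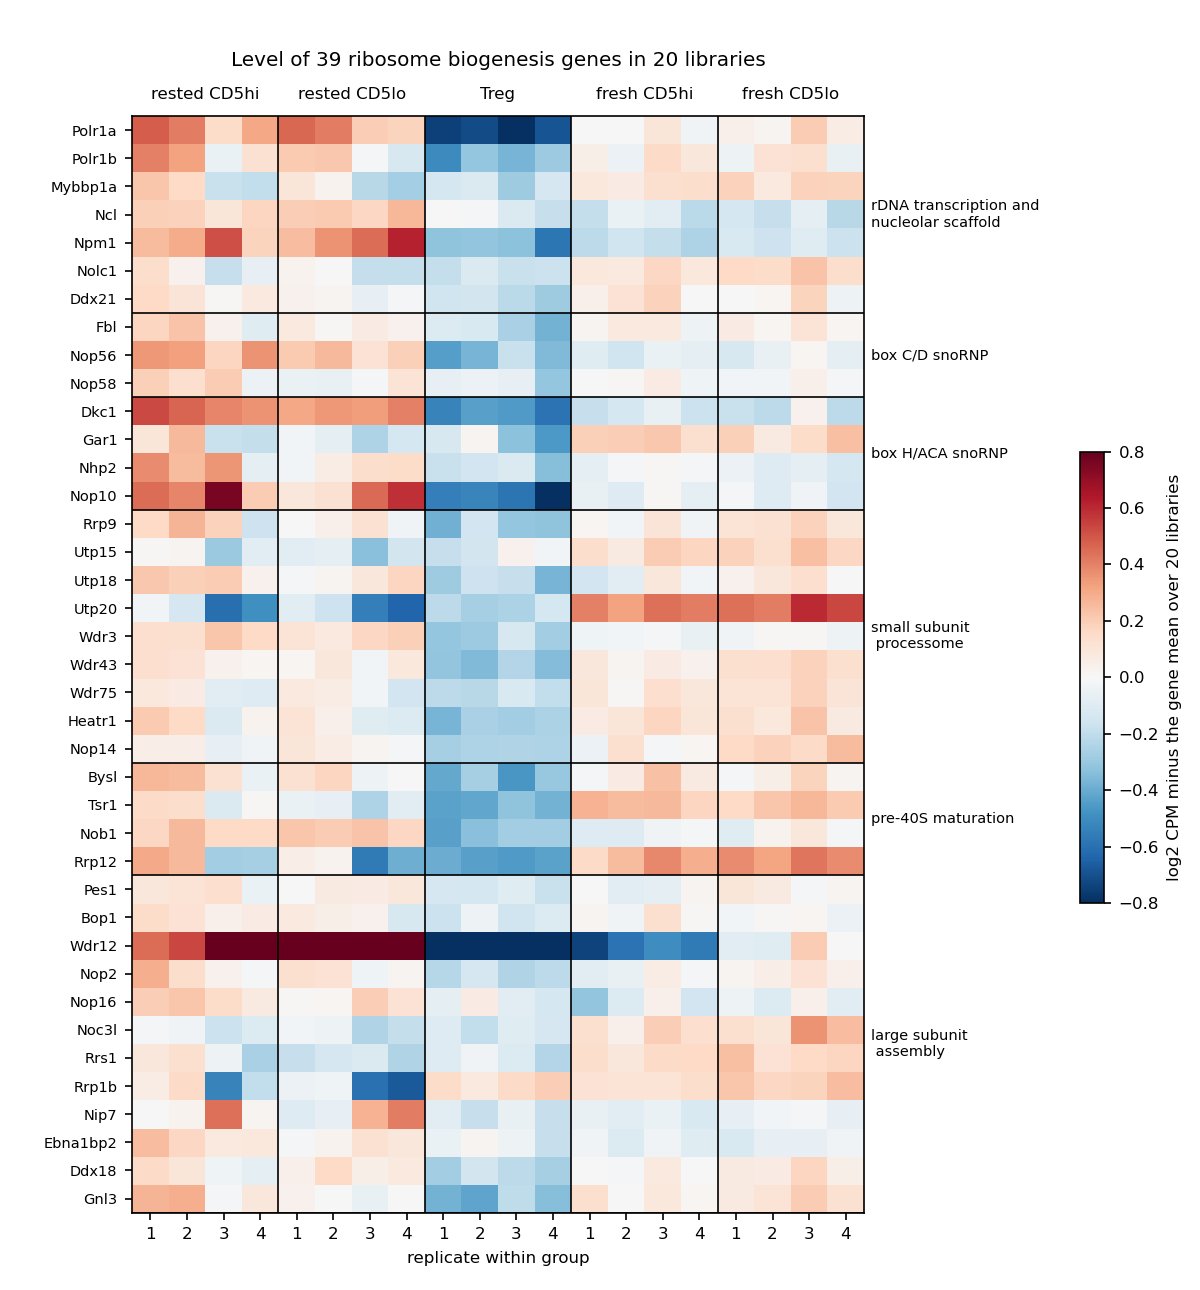
Level of each of the 39 members (rows, by role) in each of the 20 libraries (columns, by group and replicate), as log2 CPM minus the mean of that gene over all libraries, with the colours saturated at the ends of the scale. The 4 Treg columns are the lowest for most rows, and within the rested groups replicates 1 and 2 differ from 3 and 4 in rows such as Utp20, Rrp12 and Rrp1b.

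**Figure D2:**
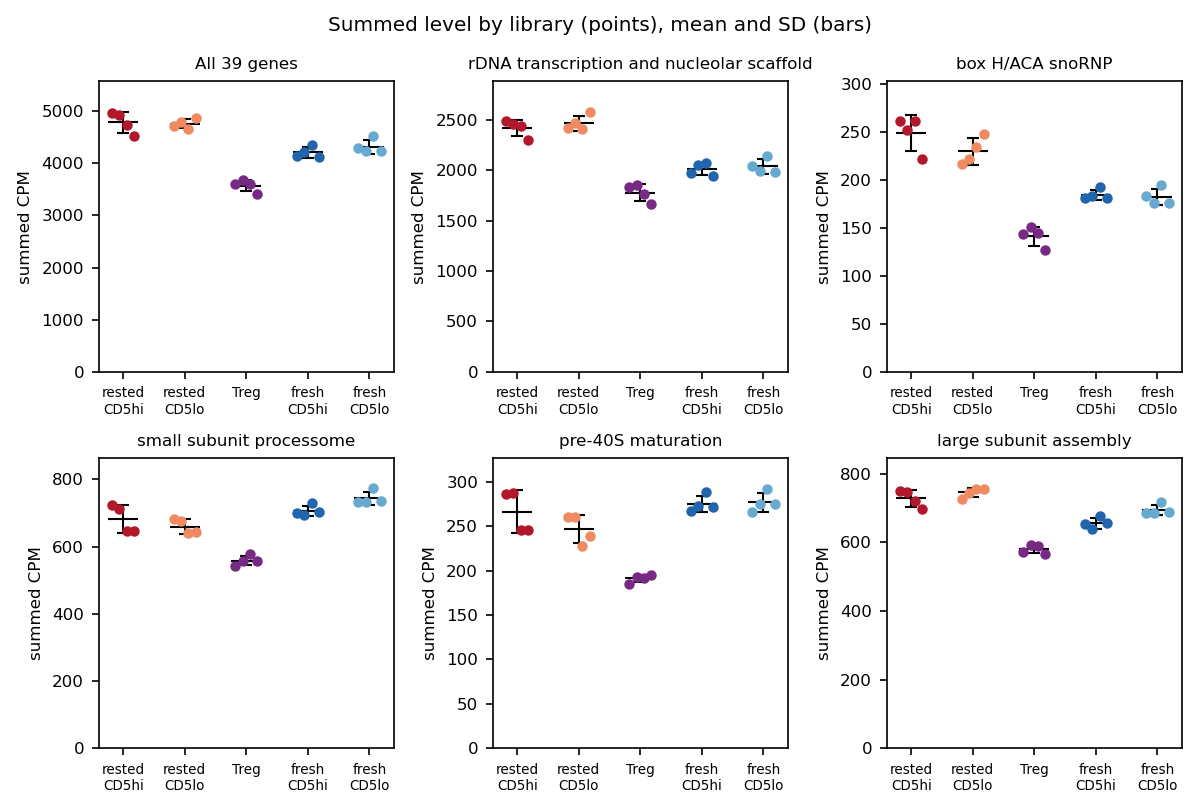
Summed CPM by group of all members together and of the members of each role except the box C/D particles. Each point is 1 library and bars give the mean and SD of 4 libraries. For the small subunit processome all Treg libraries lie at 542 to 576 CPM, rested libraries at 639 to 722 CPM and fresh libraries at 695 to 773 CPM.

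In Treg, genes of most steps of ribosome building were lower than in fresh naive cells. Against fresh CD5lo cells 0 members were higher and 31 of 39 lower, where 29.2% of all genes tested rose and 29.4% fell. Against fresh CD5hi cells 0 were higher and 30 lower, against 27.5% and 26.6% of all genes. Calls are at an adjusted p under 0.05 by edgeR's quasi-likelihood test with Benjamini-Hochberg adjustment over all 13309 genes. At an unadjusted p under 0.05 there were 32 and 34 members, all lower, against 62.2% and 58.6% of genes in either direction, and DESeq2 called 0 higher in either comparison. By library totals alone, which moved the median of all genes to 0.07, Ncl was called higher in both. The median log2 change over the members was -0.32 against fresh CD5lo and -0.27 against fresh CD5hi cells, with -0.03 and -0.02 over all genes. All Treg libraries lay below all fresh CD5lo libraries for 32 members, against 28.4% of genes, and below all fresh CD5hi libraries for 34, against 26.7%. They lay above all of either for 0 members, against 28.1% and 27.2% of genes. Both comparisons use the same 4 Treg libraries, and 29 members were lower in both. They held all 9 members of the small subunit processome and all 4 of small subunit maturation, but 6 of the 12 of large subunit assembly. Ncl, Nop58, Nhp2, Nop16, Rrp1b, Nip7 and Ebna1bp2 were called in neither. With replicate 3 as the only Treg library, whose sex-linked reads match the fresh ones, 27 members were lower than in fresh CD5lo and 25 lower than in fresh CD5hi cells. Without that library there were 31 and 32. Of all genes, 21.9% and 19.8% were lower with replicate 3 only and 29.7% and 27% without it. With replicate 3 only, the spread of the lone library is taken from the other groups, here and wherever that fit is given. Of the 4 markers of CD8 and NK cells past the filter, 1 was higher and 2 lower in Treg than in fresh CD5lo, and 3 and 1 than in fresh CD5hi cells. Of the 3 erythroid markers, 3 were lower against fresh CD5lo and 1 against fresh CD5hi cells, and of the 6 myeloid ones 1 was higher and 2 lower against fresh CD5lo, and 1 and 3 against fresh CD5hi cells. The part of these markers in the Treg results was not tested.

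**Figure D3:**
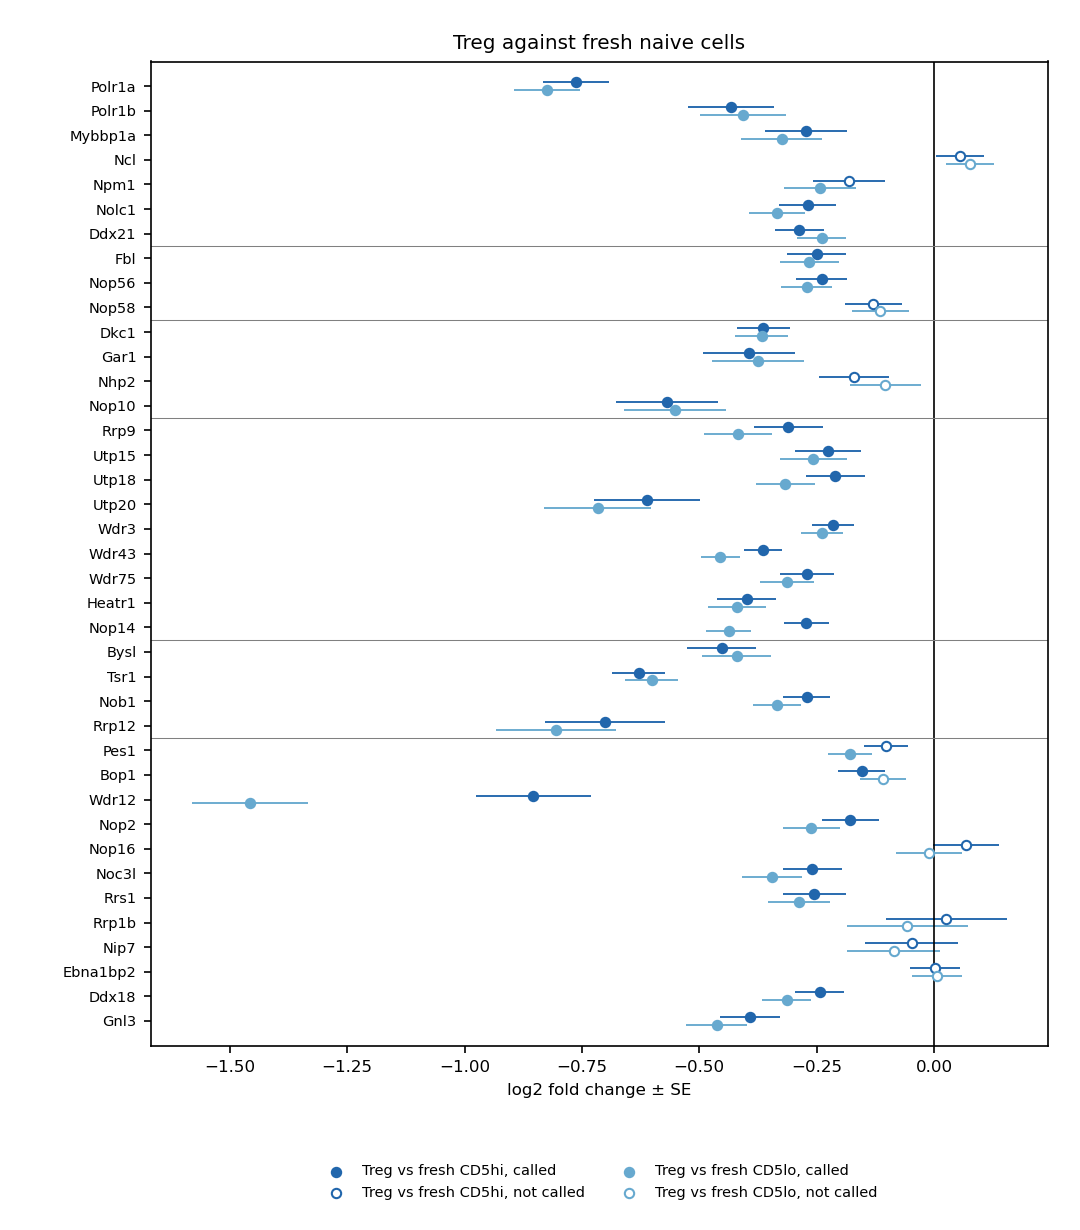
Log2 fold change ± SE (x axis) of each member (y axis) in Treg over fresh CD5hi and over fresh CD5lo cells, filled where called at an adjusted p under 0.05. Filled points are all left of 0, with Wdr12, Polr1a, Rrp12, Utp20 and Tsr1 farthest from it in both comparisons.

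After rest in culture some members were higher and others lower, as were genes in general. In CD5hi cells 13 members were higher and 4 lower in rested than in fresh libraries, against 26.2% and 26.2% of all genes. In CD5lo cells 10 were higher and 12 lower, against 26.9% and 27.3% of all genes. The CD5lo counts are near the shares of all genes. The median log2 change over the members was 0.10 in CD5hi and 0.00 in CD5lo cells, with 0.00 and -0.01 over all genes. Libraries did not overlap for 12 members higher and 4 lower in CD5hi cells, against 22.6% and 23.1% of genes, and for 10 and 13 in CD5lo cells, against 24.1% and 24%. Polr1a, Ncl, Npm1, Nop56, Dkc1, Nop10, Wdr3, Nob1, Wdr12 and Ebna1bp2 were higher in rested cells of both CD5 groups. Utp15, Utp20, Tsr1 and Noc3l were lower in both. Nhp2, Utp18 and Nop16 were called higher in CD5hi and not in CD5lo cells. Mybbp1a, Nolc1, Gar1, Wdr43, Nop14, Rrp12, Rrs1 and Rrp1b were called lower in CD5lo and not in CD5hi cells. None of these changes was called as different between the CD5 groups, except that of Rrp12 with a replicate block, given below. The Ebna1bp2 call in CD5lo cells (adjusted p = 0.043) was lost in 19 alternatives, and the Wdr43 call there (adjusted p = 0.045) in 13. Cd3e, Cd3g, Cd4 and Lck were all called lower at rest in both CD5 groups. Of the Treg markers Foxp3, Il2ra, Ikzf2 and Ctla4, 3 were higher and 1 lower in CD5hi, and 2 and 0 in CD5lo cells. Il2ra averaged 88.6 CPM in rested and 1.64 CPM in fresh CD5hi cells, and 108 and 2.93 CPM in CD5lo cells. Ctla4 averaged 35.7 and 3.45 CPM and Ikzf2 5.18 and 9.63 CPM in rested and fresh CD5hi cells. Markers of other cells moved at rest as well. The 3 erythroid markers were lower in both CD5 groups, with summed levels of 0.33 to 10.1 CPM in rested and 16.7 to 58.7 CPM in fresh libraries. Of the 6 myeloid markers, Lyz2, Csf1r and Itgam were lower and Cst3 higher in both CD5 groups, with Csf1r at 0.0677 CPM in rested and 3.21 CPM in fresh CD5hi cells on average. Of the 5 B cell markers, 3 were higher, 0 lower and 2 not called at rest in each CD5 group. Cd79b averaged 1.44 CPM in rested and 0.699 CPM in fresh CD5hi cells, and Ms4a1 1.38 and 0.273 CPM in those groups. Cd74 averaged 5.81 and 6.03 CPM and Cd79a 2.71 and 3.01 CPM in the same groups, and neither was called. Of the 4 markers of CD8 and NK cells past the filter, 0 were higher and 2 lower in each CD5 group. The part of these markers in the results at rest was not tested.

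The CD5hi count of lower members followed the rested libraries used. It was 1 with rested replicates 1 and 2, 12 with replicates 3 and 4, 10 with replicate 3 as the only rested library and 9 with sex-linked reads as a covariate. The shares of all genes lower in these fits were 23.5%, 26.2%, 24.5% and 26.7%. Members that fell in CD5hi cells with replicates 3 and 4, beyond the 4 above, were Mybbp1a, Nolc1, Gar1, Wdr75, Heatr1, Rrp12, Rrs1 and Rrp1b. In CD5lo cells the scaling moved the balance: 6 members were higher and 17 lower by library totals alone, and 8 and 15 by upper-quartile scaling, as totals moved the median of all genes to -0.10. All genes moved likewise, with 20.4% higher and 34.7% lower by totals and 22.9% and 31.3% by upper-quartile scaling.

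**Figure D4:**
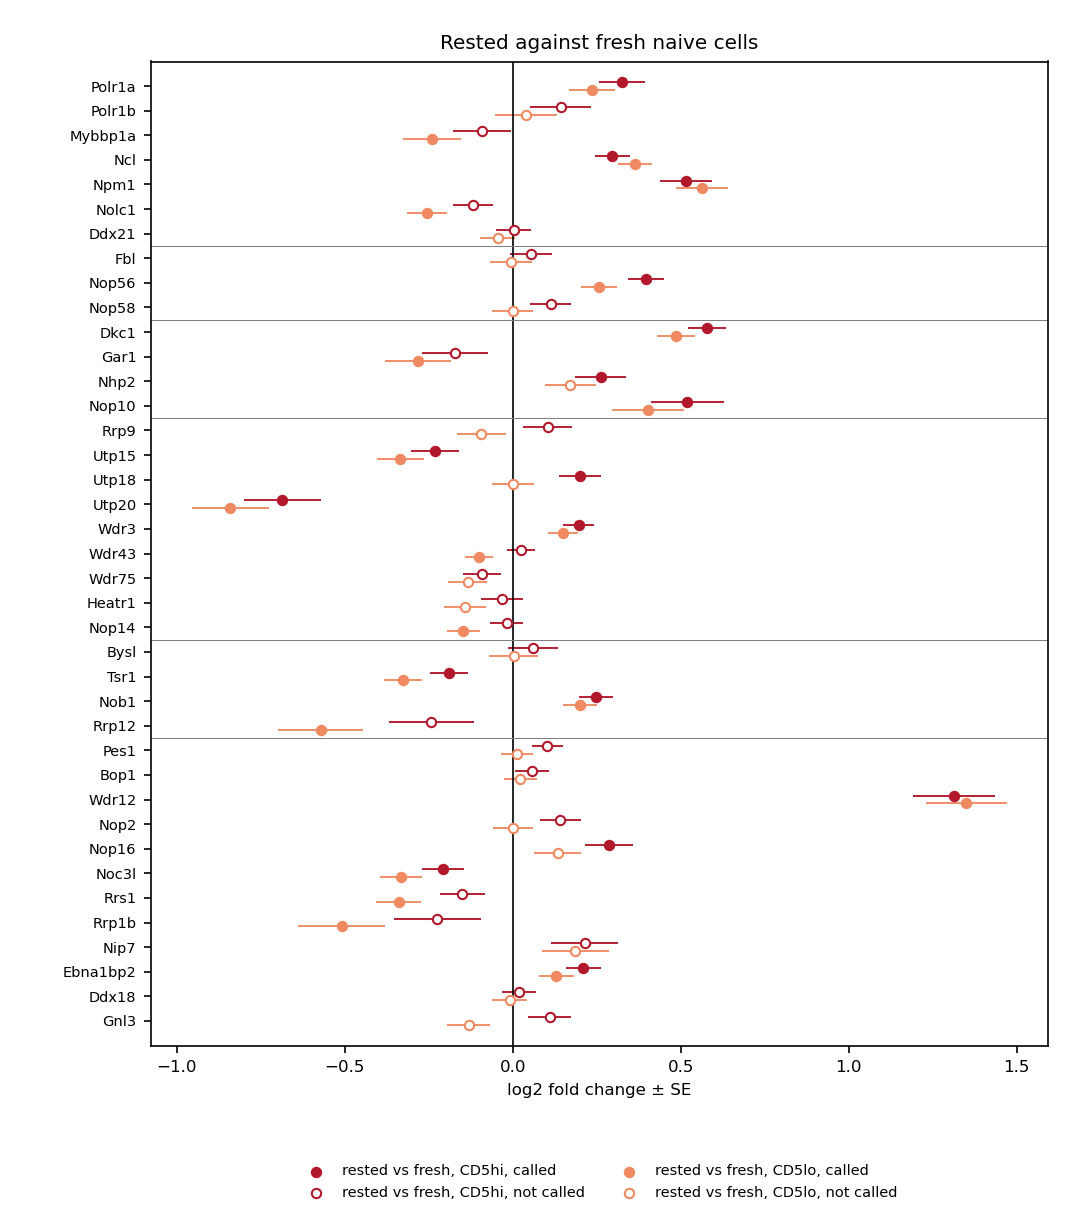
Log2 fold change ± SE (x axis) of each member (y axis) in rested over fresh cells, for CD5hi and for CD5lo cells, filled where called at an adjusted p under 0.05. Wdr12 is farthest to the right and Utp20 farthest to the left in both.

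CD5 level itself went with few differences. In rested cells 0 members were higher and 1, Wdr12, lower in CD5hi than in CD5lo cells, against 4.74% and 3.46% of all genes. In fresh cells 0 were higher and 2, Wdr12 and Nop14, lower, against 6.86% and 4.59% of all genes. At an unadjusted p under 0.05 edgeR had 5 members higher and 1 lower when rested, and 0 and 3 when fresh, against 18.9% and 21% of genes in either direction, and DESeq2 called 1 (Tsr1) and 0. Libraries did not overlap for 0 members higher and 1 lower when rested, against 5.24% and 5.02% of genes, and for 0 and 4 when fresh, against 11% and 9.4%. The median log2 difference over the members was 0.08 when rested, with 32 of 39 above 0, and -0.04 when fresh, with 11 of 39 above 0. Over all genes the medians were 0.00 when rested and -0.01 when fresh. CD5hi and CD5lo libraries of the same number varied together, and with the number as a block within each state 6 members were called higher in rested CD5hi cells, against 9.04% of 12797 genes tested in that fit. These were Ddx21, Nop56, Tsr1, Rrp12, Rrp1b and Gnl3, with log2 differences of 0.09 to 0.22. With rested replicates 1 and 2 alone there were also 6, namely Nhp2, Nop10, Tsr1, Rrp12, Rrs1 and Gnl3, against 3.75% of genes, and with replicates 3 and 4 there were 0, against 3.02%. Of the 4 markers of CD8 and NK cells past the filter, 1 was lower in CD5hi than in CD5lo cells when rested and 2 when fresh. Cd8b1 averaged 6.57 CPM in rested CD5hi against 19.9 CPM in rested CD5lo, and 7.71 CPM in fresh CD5hi against 31.1 CPM in fresh CD5lo cells. The part of these markers in the differences by CD5 level was not tested.

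The test of whether the change at rest differed by CD5 level called 0 members in either direction, against 0.113% of all genes higher and 0.338% lower. At an unadjusted p under 0.05 edgeR had 3 members (Gnl3, Utp18 and Wdr43), against 6.37% of genes, and DESeq2 had 4, with 0 called. The edgeR count was 16 with rested replicates 1 and 2 alone and 2 with replicates 3 and 4. It was 9 without rested CD5hi replicate 3 and 8 without rested CD5hi replicate 4. All of these fits called 0 members, and their shares of all genes are not given. The difference between the rested and the fresh log2 ratio of CD5hi to CD5lo cells had a median of 0.11 over the members and was above 0 for 36 of 39. Over all genes its median was 0.00 and it was above 0 for 6729 of 13309. For Gnl3 it was 0.24 ± 0.09 (SE, adjusted p = 0.53). With the block it was called for 1 member, Rrp12, at 0.33 ± 0.06 (adjusted p = 0.0072), against 0.883% of all genes higher. With the block 15 members had an unadjusted p under 0.05, against 13.8% of genes.

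Transcription of the rDNA takes RNA polymerase I, of which Polr1a and Polr1b encode the largest and the second largest subunits. Polr1a stood at 186, 177, 147 and 164 CPM in rested CD5hi and at 183, 177, 152 and 150 CPM in rested CD5lo libraries (replicates 1 to 4). It stood at 79.1, 80.8, 75.4 and 82.3 CPM in Treg, at 133, 133, 142 and 130 CPM in fresh CD5hi and at 136, 135, 153 and 138 CPM in fresh CD5lo libraries. Treg lay far below every naive library, while rested and fresh CD5lo libraries overlapped. Polr1a was lower in Treg, with log2 changes of -0.82 ± 0.07 against fresh CD5lo (adjusted p = 1.3e-09) and -0.76 ± 0.07 against fresh CD5hi cells (adjusted p = 5.5e-09). It rose at rest by 0.33 ± 0.07 in CD5hi (adjusted p = 0.0005) and by 0.24 ± 0.07 in CD5lo cells (adjusted p = 0.0068). These rises were lost with replicate 3 as the only rested library, with adjusted p-values of 0.11 and 0.16, and the CD5lo rise also by library totals alone (0.1), with rested replicates 3 and 4 alone (0.12) and with the sex covariate (0.22), where the log2 change was 0.11. Polr1b stood at 67.7, 63.8, 49.2 and 55.6 CPM in rested CD5hi and at 59, 59.5, 50.8 and 46.8 CPM in rested CD5lo libraries. It stood at 35.9, 41.3, 39.6 and 41.9 CPM in Treg, at 52.9, 49.5, 57 and 54.6 CPM in fresh CD5hi and at 49.8, 55.4, 55.8 and 49.1 CPM in fresh CD5lo libraries. Again Treg did not overlap any naive library, with log2 changes of -0.43 ± 0.09 (adjusted p = 4e-04) against fresh CD5hi and -0.41 ± 0.09 (adjusted p = 0.00066) against fresh CD5lo cells. Polr1b was not called at rest.

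Ncl and Npm1, the most abundant transcripts of the list, rose at rest in both CD5 groups. Ncl, encoding nucleolin, an abundant RNA-binding protein of the nucleolus, stood at 707, 704, 663 and 698 CPM in rested CD5hi and at 711, 716, 694 and 744 CPM in rested CD5lo libraries. It stood at 618, 612, 572 and 545 CPM in Treg, at 544, 597, 582 and 534 CPM in fresh CD5hi and at 563, 545, 588 and 530 CPM in fresh CD5lo libraries. Rested libraries lay above all others, while Treg overlapped the fresh groups. The rise at rest was 0.30 ± 0.05 in CD5hi (adjusted p = 5.7e-05) and 0.36 ± 0.05 in CD5lo cells (adjusted p = 4.4e-06) on the log2 scale. In Treg Ncl differed by 0.06 ± 0.05 from fresh CD5hi and 0.08 ± 0.05 from fresh CD5lo cells, with adjusted p-values of 0.38 and 0.21, and by library totals alone it was higher at 0.14 ± 0.05 (adjusted p = 0.022) and 0.18 ± 0.05 (adjusted p = 0.0046). Npm1 encodes nucleophosmin, a nucleolar chaperone, and its reads may be shared with processed copies elsewhere in the genome. It stood at 842, 868, 1013 and 800 CPM in rested CD5hi and at 842, 908, 966 and 1086 CPM in rested CD5lo libraries. It stood at 566, 569, 564 and 475 CPM in Treg, at 613, 635, 619 and 598 CPM in fresh CD5hi and at 652, 630, 662 and 629 CPM in fresh CD5lo libraries. All rested libraries were above all fresh ones and all Treg libraries below them. Npm1 rose at rest by 0.52 ± 0.08 in CD5hi (adjusted p = 9.1e-06) and 0.56 ± 0.08 in CD5lo cells (adjusted p = 2.8e-06). In Treg it was called against fresh CD5lo cells at -0.24 ± 0.08 (adjusted p = 0.0095) but not against fresh CD5hi cells at -0.18 ± 0.08 (adjusted p = 0.051). The call was lost by library totals alone (adjusted p = 0.084), without Treg replicate 4, its lowest library (adjusted p = 0.089), and with the sex covariate (adjusted p = 0.15). Mybbp1a, Nolc1 (the nucleolar phosphoprotein Nopp140) and the RNA helicase Ddx21 were lower in Treg in both comparisons, with log2 changes between -0.33 and -0.24. The Mybbp1a call against fresh CD5hi cells was lost by library totals alone (adjusted p = 0.1).

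Box C/D particles methylate ribosomal RNA, and of their members Nop56 alone was called at rest. Fbl, encoding fibrillarin, the methyltransferase, stood at 136, 141, 123 and 113 CPM in rested CD5hi and at 127, 121, 126 and 123 CPM in rested CD5lo libraries. It stood at 112, 111, 101 and 92.7 CPM in Treg, at 123, 127, 127 and 117 CPM in fresh CD5hi and at 126, 122, 130 and 122 CPM in fresh CD5lo libraries. Rested and fresh libraries overlapped and Treg lay below all of them. Fbl was lower in Treg, at log2 changes of -0.25 ± 0.06 against fresh CD5hi (adjusted p = 0.002) and -0.27 ± 0.06 against fresh CD5lo cells (adjusted p = 0.001). Nop56, a scaffold protein of the particle, stood at 220, 219, 196 and 222 CPM in rested CD5hi and at 201, 208, 188 and 198 CPM in rested CD5lo libraries. It stood at 128, 134, 154 and 136 CPM in Treg, at 162, 156, 167 and 165 CPM in fresh CD5hi and at 159, 167, 176 and 164 CPM in fresh CD5lo libraries. The 3 states did not overlap. Nop56 rose at rest by 0.40 ± 0.05 in CD5hi (adjusted p = 3.2e-06) and 0.26 ± 0.05 in CD5lo cells (adjusted p = 0.00043). It was lower in Treg, at log2 changes of -0.24 ± 0.05 against fresh CD5hi (adjusted p = 0.00078) and -0.27 ± 0.05 against fresh CD5lo cells (adjusted p = 0.0002). With replicate 3 as the only Treg library these calls were lost, at adjusted p-values of 0.43 and 0.24. Nop58, its partner in the particle, was called in none of the 6 comparisons of groups.

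Box H/ACA particles convert uridines of ribosomal RNA to pseudouridine, and Dkc1 encodes their enzyme. Dkc1 stood at 130, 124, 118 and 115 CPM in rested CD5hi and at 111, 114, 113 and 119 CPM in rested CD5lo libraries. It stood at 61.8, 66.3, 65.6 and 59.5 CPM in Treg, at 78.9, 81.3, 86 and 79.5 CPM in fresh CD5hi and at 79.4, 77.6, 91.8 and 77.8 CPM in fresh CD5lo libraries. The order rested, fresh, Treg held without overlap. Dkc1 rose at rest by 0.58 ± 0.06 in CD5hi (adjusted p = 2.7e-08) and 0.49 ± 0.06 in CD5lo cells (adjusted p = 3.4e-07). It was lower in Treg, at log2 changes of -0.36 ± 0.06 against fresh CD5hi (adjusted p = 1.2e-05) and -0.37 ± 0.06 against fresh CD5lo cells (adjusted p = 9.2e-06). Dkc1 lies on the X chromosome, and its calls held with sex-linked reads as a covariate. They held too with replicate 3 as the only rested or Treg library, a fit in which other groups give the spread of that library. Nop10, a small protein of the same particle, stood at 69.4, 66.6, 85.9 and 58.4 CPM in rested CD5hi and at 54.2, 55.4, 69.5 and 76 CPM in rested CD5lo libraries. It stood at 34.8, 35.2, 33.8 and 27.8 CPM in Treg, at 48.8, 47.3, 51 and 48.4 CPM in fresh CD5hi and at 50.2, 47.4, 49.8 and 45.8 CPM in fresh CD5lo libraries. The same order held, with a wider spread among rested libraries. Nop10 rose at rest by 0.52 ± 0.11 in CD5hi (adjusted p = 0.00041) and 0.40 ± 0.11 in CD5lo cells (adjusted p = 0.0035), the second lost with rested replicates 1 and 2 alone (adjusted p = 0.058). It was lower in Treg, at log2 changes of -0.57 ± 0.11 against fresh CD5hi (adjusted p = 0.00014) and -0.55 ± 0.11 against fresh CD5lo cells (adjusted p = 0.00017). Gar1, of the same particle, was lower in Treg, at log2 changes of -0.39 ± 0.10 against fresh CD5hi (adjusted p = 0.0018) and -0.38 ± 0.10 against fresh CD5lo cells (adjusted p = 0.0024). Nhp2, the fourth protein, was not called in Treg.

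The small subunit processome assembles on the precursor while it is transcribed, and all 9 of its members fell in Treg in both comparisons. Their log2 changes ran from -0.61 to -0.21 against fresh CD5hi and from -0.72 to -0.24 against fresh CD5lo cells. With replicate 3 as the only Treg library, Utp15 and Wdr3 were called in neither comparison and Utp18 was not called against fresh CD5hi cells, with adjusted p-values of 0.15 to 0.28. By library totals alone, Utp15 was called in neither (adjusted p = 0.099 and 0.15) and Utp18 was not called against fresh CD5hi cells (adjusted p = 0.084). That Utp18 call was also lost with the sex covariate (0.061), without fresh CD5hi replicate 3 (0.067) and without Treg replicate 4 (0.06). Utp20, a large scaffold protein, stood at 70, 64.7, 46.8 and 50.6 CPM in rested CD5hi and at 66.6, 63.3, 48.6 and 45.7 CPM in rested CD5lo libraries. It stood at 61.3, 59, 59.6 and 64.5 CPM in Treg, at 94, 88.6, 96.5 and 94.2 CPM in fresh CD5hi and at 96.6, 94.4, 107 and 103 CPM in fresh CD5lo libraries. All fresh libraries lay above all rested and Treg ones, and rested replicates 3 and 4 lay below replicates 1 and 2. Utp20 fell at rest, with log2 changes of -0.69 ± 0.11 in CD5hi (adjusted p = 3.7e-05) and -0.84 ± 0.11 in CD5lo cells (adjusted p = 2.8e-06). In Treg it changed by -0.61 ± 0.11 against fresh CD5hi (adjusted p = 1e-04) and -0.72 ± 0.11 against fresh CD5lo cells (adjusted p = 1.4e-05). Heatr1, the counterpart of yeast Utp10, stood at 147, 142, 118 and 130 CPM in rested CD5hi and at 138, 131, 119 and 118 CPM in rested CD5lo libraries. It stood at 98.5, 106, 105 and 107 CPM in Treg, at 133, 136, 144 and 136 CPM in fresh CD5hi and at 139, 135, 149 and 134 CPM in fresh CD5lo libraries. Treg was below every naive library, with log2 changes of -0.40 ± 0.06 (adjusted p = 1.3e-05) against fresh CD5hi and -0.42 ± 0.06 (adjusted p = 5.8e-06) against fresh CD5lo cells, and Heatr1 was not called at rest. Nop14 stood at 60.6, 68.4, 62 and 63.4 CPM in fresh CD5hi against 69.9, 71.1, 69.5 and 74.6 CPM in fresh CD5lo libraries, without overlap. Its log2 difference of -0.17 ± 0.05 (adjusted p = 0.025) was lost by library totals alone (adjusted p = 0.08) and in 5 of the fits that left out 1 library. Wdr3, the counterpart of yeast Utp12, rose at rest, by 0.20 ± 0.04 in CD5hi (adjusted p = 0.001) and 0.15 ± 0.04 in CD5lo cells (adjusted p = 0.008). The CD5lo rise was lost by library totals (adjusted p = 0.26), upper-quartile scaling (adjusted p = 0.062) and rested replicates 1 and 2 alone (adjusted p = 0.12).

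Among the 4 factors of late small subunit maturation, all lower in Treg, Rrp12 and Tsr1 changed most. Rrp12 stood at 48.1, 46.6, 32.1 and 32.4 CPM in rested CD5hi and at 40.4, 39.7, 26.3 and 29.7 CPM in rested CD5lo libraries. It stood at 29.5, 28.8, 28.5 and 29 CPM in Treg, at 43.3, 46.4, 50.8 and 47.7 CPM in fresh CD5hi and at 50.7, 48.5, 52.5 and 50.6 CPM in fresh CD5lo libraries. Treg libraries were close together, and rested replicates 3 and 4 lay near them while rested CD5hi replicates 1 and 2 lay within the fresh CD5hi range. Rrp12 was lower in Treg, at log2 changes of -0.70 ± 0.13 against fresh CD5hi (adjusted p = 7.9e-05) and -0.80 ± 0.13 against fresh CD5lo cells (adjusted p = 1.3e-05). At rest it fell by 0.57 on the log2 scale (SE 0.13, adjusted p = 0.00073) in CD5lo cells and was not called in CD5hi cells at -0.24 ± 0.13 (adjusted p = 0.12). Tsr1 stood at 103, 102, 85 and 92.7 CPM in rested CD5hi and at 88.7, 88.1, 77.6 and 86.6 CPM in rested CD5lo libraries. It stood at 68.3, 69, 73.6 and 70.8 CPM in Treg, at 112, 110, 110 and 104 CPM in fresh CD5hi and at 103, 107, 111 and 107 CPM in fresh CD5lo libraries. The order fresh, rested, Treg held without overlap within each CD5 group. Tsr1 was lower in Treg, at log2 changes of -0.63 ± 0.06 against fresh CD5hi (adjusted p = 4.5e-09) and -0.60 ± 0.06 against fresh CD5lo cells (adjusted p = 7.9e-09). Nob1, the endonuclease that makes the final cut of the small subunit RNA, rose at rest in both CD5 groups. It stood at 59.3, 63.2, 59.1 and 59.1 CPM in rested CD5hi and at 61.6, 60.7, 61.9 and 59.2 CPM in rested CD5lo libraries. It stood at 39.1, 41.9, 43.6 and 43.5 CPM in Treg, at 49.2, 49.3, 51.9 and 52.4 CPM in fresh CD5hi and at 49.4, 53.8, 56.3 and 52.4 CPM in fresh CD5lo libraries. The 3 states did not overlap, with rises at rest of 0.25 ± 0.05 in CD5hi (adjusted p = 0.00034) and 0.20 ± 0.05 in CD5lo cells (adjusted p = 0.0021). The CD5lo rise was lost by library totals alone (adjusted p = 0.082). In Treg Nob1 changed by -0.27 ± 0.05 against fresh CD5hi (adjusted p = 1e-04) and -0.33 ± 0.05 against fresh CD5lo cells (adjusted p = 7.2e-06).

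Wdr12, which forms the PeBoW complex of large subunit maturation with Pes1 and Bop1, had the largest changes of all members in each of the 6 comparisons of groups. It stood at 66.4, 70.4, 93.7 and 89.7 CPM in rested CD5hi and at 105, 110, 140 and 144 CPM in rested CD5lo libraries. It stood at 15.8, 19.3, 20.2 and 16.1 CPM in Treg, at 29.1, 32.2, 34.5 and 32.9 CPM in fresh CD5hi and at 45.7, 45.4, 56 and 48.7 CPM in fresh CD5lo libraries. None of the 5 groups overlapped another, and the order ran from rested CD5lo at the top through rested CD5hi, fresh CD5lo and fresh CD5hi to Treg. Wdr12 rose at rest by a log2 change of 1.31 ± 0.12 in CD5hi (adjusted p = 1.2e-08) and 1.35 ± 0.12 in CD5lo cells (adjusted p = 6.8e-09). CD5hi cells had less of it than CD5lo cells, at log2 differences of -0.64 ± 0.12 when rested (adjusted p = 0.00097) and -0.60 ± 0.12 when fresh (adjusted p = 0.0013). Treg had less than fresh CD5hi cells, at -0.85 ± 0.12 (adjusted p = 4.5e-06), and less than fresh CD5lo cells, at -1.46 ± 0.12 (adjusted p = 1.3e-09). All 6 calls held in every alternative run. Wdr12 overlaps Carf on the opposite strand, and without a stated strand setting their reads cannot be told apart. The same limit holds for 12 other members that overlap a coding gene, among them Nop56, Dkc1, Heatr1, Tsr1 and Bop1.

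The partners of Wdr12 were not called at rest or by CD5 level. Bop1 stood at 97, 94.9, 90.4 and 91.8 CPM in rested CD5hi and at 92.7, 90.8, 90 and 80.4 CPM in rested CD5lo libraries. It stood at 78, 85.4, 78.4 and 81.2 CPM in Treg, at 89.1, 86.2, 96 and 88.3 CPM in fresh CD5hi and at 86.3, 88.4, 88.8 and 84.8 CPM in fresh CD5lo libraries. Rested and fresh groups overlapped. Bop1 was called in Treg against fresh CD5hi cells at -0.15 ± 0.05 (adjusted p = 0.012) and not against fresh CD5lo cells at -0.11 ± 0.05 (adjusted p = 0.068). The call was lost by library totals alone (adjusted p = 0.31) and without fresh CD5hi replicate 3 (0.087), Treg replicate 1 (0.064) or Treg replicate 3 (0.058). Pes1 was called in Treg against fresh CD5lo cells at -0.18 ± 0.05 (adjusted p = 0.0025), a call lost by library totals (0.17) and with replicate 3 as the only Treg library (0.16). Against fresh CD5hi cells it was at -0.10 ± 0.05 (adjusted p = 0.069). Rrp1b, a nucleolar protein of large subunit assembly, stood at 51.2, 54.6, 33.8 and 42.9 CPM in rested CD5hi and at 47.6, 48, 32.4 and 30.9 CPM in rested CD5lo libraries. It stood at 54.3, 51.9, 54.6 and 56.3 CPM in Treg, at 53.2, 52.9, 52.9 and 54.2 CPM in fresh CD5hi and at 57.3, 55, 55.4 and 58.2 CPM in fresh CD5lo libraries. Treg libraries overlapped both fresh groups, and rested replicates 3 and 4 lay lowest. Rrp1b fell at rest in CD5lo cells, at a log2 change of -0.51 ± 0.13 (adjusted p = 0.0024) and was at -0.22 ± 0.13 in CD5hi cells (adjusted p = 0.15). Gnl3, encoding nucleostemin, was lower in Treg, at log2 changes of -0.39 ± 0.06 against fresh CD5hi (adjusted p = 2.3e-05) and -0.46 ± 0.06 against fresh CD5lo cells (adjusted p = 2.3e-06). The helicase Ddx18, Nop2, an RNA methyltransferase, Noc3l and Rrs1 were also lower in both, with log2 changes between -0.34 and -0.18. For Nop2 the call against fresh CD5hi cells (adjusted p = 0.017) was lost by library totals (adjusted p = 0.25), without fresh CD5hi replicate 3 (0.088) and without Treg replicate 1 (0.054), 3 (0.06) or 4 (0.051). The Noc3l call against fresh CD5hi cells was lost with replicate 3 as the only Treg library (adjusted p = 0.1).

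**Figure D5:**
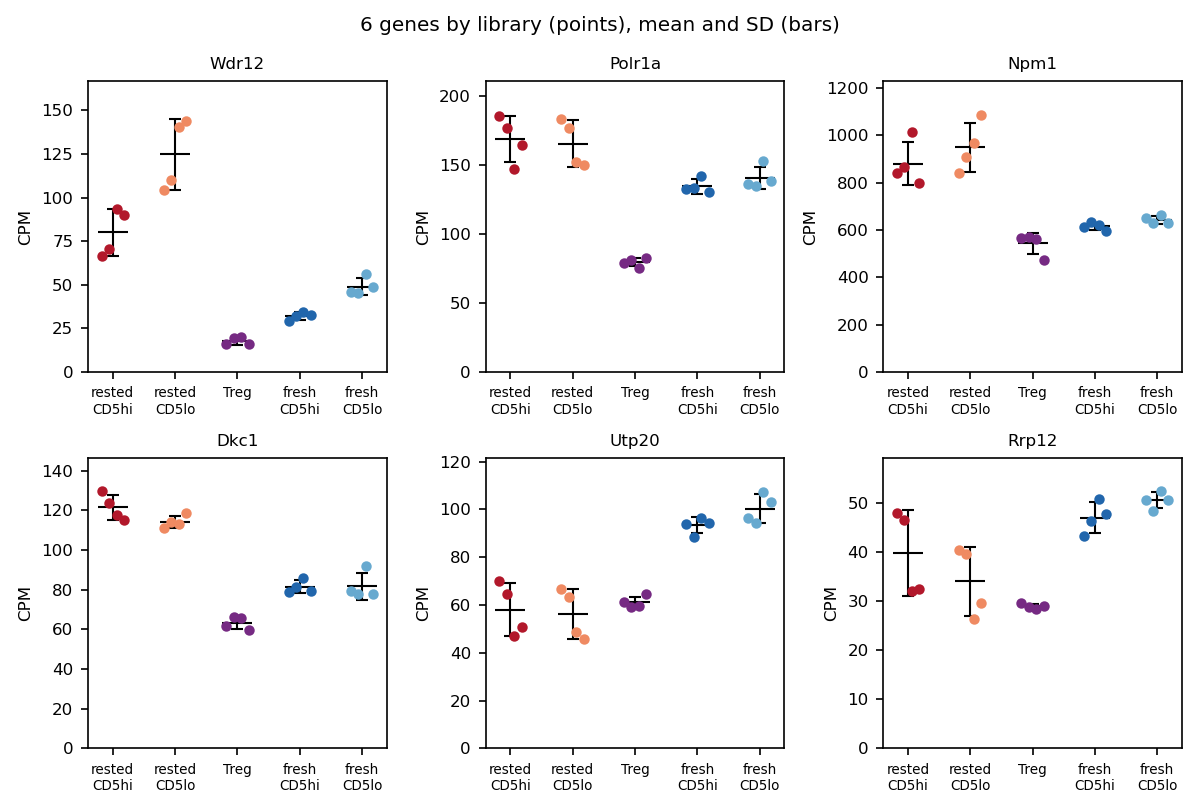
CPM of Wdr12, Polr1a, Npm1, Dkc1, Utp20 and Rrp12 by group, with each point 1 library and bars the mean and SD of 4 libraries, on axes that start at 0. Wdr12, Npm1 and Dkc1 are highest in rested groups, Utp20 is highest in fresh groups, and the Rrp12 points of the rested groups lie apart in pairs.

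Genes of the same pathway outside the list were counted from further lists. In Treg their counts can be read against 27.5% of all genes higher and 26.6% lower than in fresh CD5hi cells, and 29.2% and 29.4% against fresh CD5lo cells. Of 44 other large subunit factors, 1 was higher and 32 lower in Treg than in fresh CD5hi cells, and 3 and 33 against fresh CD5lo cells. Sdad1 was among them, at 56.9 ± 3.05 CPM in Treg, 91.6 ± 2.10 CPM in fresh CD5hi and 95.8 ± 3.59 CPM in fresh CD5lo cells (SD, n = 4 each). Of 41 other small subunit factors, 1 was higher and 18 lower against fresh CD5hi, and 1 and 19 against fresh CD5lo cells, among them Pwp2 at 37.3 ± 1.33 CPM in Treg, 53.7 ± 2.60 CPM in fresh CD5hi and 59.6 ± 2.29 CPM in fresh CD5lo cells. Of 13 other RNA polymerase I and rDNA factors, 1 was higher and 7 lower in each Treg comparison. Rrn3, the initiation factor of this polymerase, was one of the lower genes at -0.29 ± 0.05 against fresh CD5hi (adjusted p = 6.3e-05) and -0.43 ± 0.05 against fresh CD5lo cells (adjusted p = 3.8e-07). Ubtf, its upstream binding factor, was not called in Treg, at log2 changes of 0.04 ± 0.07 and 0.12 ± 0.07 in that order of groups, and fell at rest by 0.36 on the log2 scale in CD5hi (SE 0.07, adjusted p = 0.00027) and 0.35 in CD5lo cells (SE 0.07, adjusted p = 0.00037). At rest, the 44 large subunit factors gave 15 higher and 11 lower in CD5hi and 11 and 14 in CD5lo cells, and the 41 small subunit factors 11 and 7, and 8 and 14. The 13 RNA polymerase I and rDNA factors gave 6 and 4 in CD5hi and 6 and 3 in CD5lo cells. All genes gave 26.2% each way in CD5hi and 26.9% and 27.3% in CD5lo cells, and no difference of these lists from all genes was tested. By CD5 level, the large subunit factors gave 0 higher and 2 lower when rested and 1 and 1 when fresh, and the RNA polymerase I factors 1 higher and 0 lower when rested, namely Polr1e, and 0 and 0 when fresh by edgeR, with 1 at an unadjusted p under 0.05. Of the 41 small subunit factors 0 were called by edgeR, when rested or fresh, with 2 at an unadjusted p under 0.05 in each. By CD5 level, 4.74% of all genes were higher and 3.46% lower when rested, and 6.86% and 4.59% when fresh. At an unadjusted p under 0.05 there were 18.9% when rested and 21% when fresh, in either direction.

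Of 10 genes of Myc and its Max network, 6 were higher and 2 lower at rest in CD5hi cells. In CD5lo cells 5 were higher and 1 lower. In Treg 4 were higher and 1 lower than in fresh CD5hi and 4 and 2 than in fresh CD5lo cells. Of all genes, 26.2% went each way at rest in CD5hi and 26.9% and 27.3% in CD5lo cells. In Treg 27.5% were higher and 26.6% lower than in fresh CD5hi, and 29.2% and 29.4% than in fresh CD5lo cells. No difference from these shares was tested. Myc stood at 185 ± 5.71 CPM in rested CD5hi, 166 ± 6.85 CPM in rested CD5lo, 113 ± 5.63 CPM in Treg, 90.5 ± 8.75 CPM in fresh CD5hi and 87.6 ± 11.4 CPM in fresh CD5lo cells (SD, n = 4 each). It rose at rest by 1.03 ± 0.08 in CD5hi (adjusted p = 2.8e-10) and 0.92 ± 0.08 in CD5lo cells (adjusted p = 1.7e-09), and was also higher in Treg, by 0.32 ± 0.08 against fresh CD5hi (adjusted p = 0.0012) and 0.36 ± 0.08 against fresh CD5lo cells (adjusted p = 0.00028). Mxd1 and Mxd4, which encode partners of Max that act against Myc, were higher in Treg by 1.09 ± 0.07 (adjusted p = 1.9e-11) and 1.28 ± 0.11 (adjusted p = 1.2e-09) against fresh CD5hi cells. Against fresh CD5lo cells they were higher by 1.76 ± 0.07 (adjusted p = 5.7e-15) and 1.62 ± 0.11 (adjusted p = 2.3e-11). Of 14 proliferation genes, 11 were higher and 1 lower in Treg than in fresh CD5hi cells, and 12 and 1 against fresh CD5lo cells. Mki67, a marker of cycling cells, stood at 50.8 to 72.7 CPM in Treg, 1.87 to 9.41 CPM in rested and 4.76 to 10.4 CPM in fresh naive libraries, so the group with the lowest ribosome biogenesis levels had the highest Mki67.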

How the data were processed

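Read counts per gene symbol, as the authors deposited them for the 20 libraries, were the data tested. There is a second table with a normalized signal, deposited for 10147 of the same genes. Within each library that signal was proportional to CPM, and it was used for this check only. Per the labels' protocols, mRNA libraries were read as 50-base pairs. Per the submitters' processing notes, TopHat2 2.0.11, featureCounts 1.4.5 (Subread), edgeR and the mm9 build were used. For the annotation and for strand, the settings were not given in the sources used here. Of the counts from 1 to 10, 62.3 to 66.2% were even in each library, so mates of a pair may have been counted one by one and counting error is then larger than the totals imply.

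The test was that of edgeR 4.0.16 under R 4.3.3 (quasi-likelihood test, trimmed-mean-of-M-values scaling, default expression filter). A single model with 5 groups left 15 residual degrees of freedom and its spread is shared by all 20 libraries. Benjamini-Hochberg adjustment ran over all 13309 genes of each comparison, and calls are at 0.05. CPM are given as mean ± SD (n = 4) and log2 fold changes with SE, computed by dividing the change by the root of its F value, which is rough for changes near 0. The procedure was tested on simulated counts. The members, lists and tests were chosen with earlier results of these data known. Values in each library are given for the 5 largest called changes per comparison and for Polr1a, Polr1b, Ncl, Npm1, Fbl, Nop56, Dkc1, Heatr1, Bop1 and Nob1. Of other lists, Myc, Ubtf, Rrn3 and up to 4 called genes by size of change could be named.

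Same-numbered CD5hi and CD5lo libraries deviated together, with correlations over genes of 0.289 to 0.789 when rested and 0.358 to 0.650 when fresh. The labels give the numbers without saying what they mark. Alternatives were DESeq2 1.42.0, other scalings and filters, only the groups compared, a replicate block, a covariate from sex-linked reads, subsets of the rested and Treg libraries and leaving out each library. The block over all 5 groups for Treg was added after seeing the data. Promoter letters come from RefSeq entries on GRCm38.p6, a build other than the counts' mm9.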

Additional observations from a re-analysis of the deposited data

Results flagged for a closer look

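Of 200 sets of 4 libraries tested (the 39 members and their sum in 5 groups), 15, or 7.5%, held 1 library far from the other 3 of its group, by Dixon's test of the gap to the nearest library at its critical value for 4. Chance flags about 1 in 20 groups. Among fresh CD5lo libraries, replicate 3 was the highest of its group for Dkc1 at 91.8, Nop58 at 95.5, Wdr43 at 138 and Wdr75 at 58.1 CPM, and replicate 2 the lowest for Mybbp1a at 236 CPM. Among fresh CD5hi libraries, replicate 3 was the highest for Ddx18 at 91.7 and Nolc1 at 118 CPM. Among Treg libraries, replicate 3 was the highest for Wdr3 at 72.3 CPM and the lowest for Mybbp1a at 184 CPM, and replicate 4 was the lowest for Npm1 at 475 and Nop58 at 74.9 CPM. Among rested CD5hi libraries, replicate 3 was the highest for Nip7 at 59.5 and the lowest for Nop56 at 196 CPM, replicate 2 the highest for Nob1 at 63.2 and replicate 4 the lowest for Utp18 at 57.6 CPM. No member stood out in this way among rested CD5lo libraries.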

How the results depend on the processing

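No call of a member turned its direction in any alternative. Of the calls at rest, 13 of 22 in CD5lo and 11 of 17 in CD5hi cells were never lost, of the Treg calls 26 of 31 against fresh CD5lo and 22 of 30 against fresh CD5hi cells. For rested against fresh CD5lo cells, library totals alone gave 6 members higher (10 with the scaling used). For rested against fresh CD5hi cells the members lower (4) were 9 with the sex covariate, 10 with replicate 3 only, 1 with rested replicates 1 and 2 and 12 with replicates 3 and 4. For rested CD5hi against rested CD5lo the members higher (0) were 1 with DESeq2, 1 with library totals, 2 with replicates 1, 2 and 4, 6 with replicates 1 and 2 and 6 with the replicate block within states. For fresh CD5hi against fresh CD5lo library totals gave 1 member lower (2). Library totals gave 1 member higher (0) in each Treg comparison, and the block within states 1 higher (0) in the interaction. Apart from their own construction, the cause of these shifts was not tested. Where no share of all genes is given above for a fit, its count cannot be read against one.

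With a minimum of 1.5-fold, calls fell to 1 higher and 1 lower at rest in either CD5 group, 1 lower in fresh CD5hi cells, and 5 lower in each Treg comparison. The share of all genes called at this minimum is not given, so these counts cannot be read against it. Leaving out each library in turn gave 13 to 17 higher and 4 to 8 lower for rested against fresh CD5hi and 9 to 12 higher and 9 to 15 lower for rested against fresh CD5lo cells. It gave 0 to 2 higher and 1 lower for rested CD5hi against CD5lo, and 0 higher and 1 to 2 lower for fresh CD5hi against CD5lo. For Treg it gave 0 higher and 27 to 31 lower against fresh CD5hi and 0 to 1 higher and 30 to 31 lower against fresh CD5lo, and 0 in either direction for the interaction. The replicate block over all naive groups gave 9 higher and 13 lower for CD5lo and 13 and 5 for CD5hi cells at rest, and over all 5 groups 31 and 32 lower in Treg. It changed no other count by over 1.5 times. The shares of all genes called in these leave-one-out and replicate block fits are not given, so their counts cannot be read against them.

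With 4 libraries a group, the changes of most members were under 1.5-fold. Each test used a spread per gene shared by all 20 libraries, not that of the groups compared. Where rested libraries varied more, the shared spread can be too small for them and too large for fresh and Treg libraries. For Rrp12 the SD was 22.0% of the mean in rested CD5hi, 1.52% in Treg and 6.61% in fresh CD5hi libraries. Reads of overlapping genes were not separated, and the sex-linked reads differ between most rested or Treg libraries and all fresh ones.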

Other observations

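Genes next to the pathway were also low in Treg. Of 9 host genes that carry small nucleolar RNAs in their introns, 0 were higher and 7 lower than in fresh CD5hi cells, and 0 and 8 against fresh CD5lo cells. Of all genes, 27.5% were higher and 26.6% lower against fresh CD5hi, and 29.2% and 29.4% against fresh CD5lo cells. Snhg8 stood at 16.7 ± 2.14 CPM in Treg, 28.9 ± 2.64 CPM in fresh CD5hi and 34.0 ± 4.32 CPM in fresh CD5lo cells (SD, n = 4 each). At rest 3 of the 9 were higher and 1 lower in CD5hi cells, against 26.2% of all genes each way. In CD5lo cells 4 were higher and 1 lower, against 26.9% and 27.3%. Snhg4, for example, stood at 10.6 ± 0.838 CPM in rested against 5.26 ± 0.856 CPM in fresh CD5hi cells, and at 8.81 ± 1.13 CPM in rested against 5.31 ± 1.16 CPM in fresh CD5lo cells.

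RNA polymerase III makes the smallest ribosomal RNA and the transfer RNAs. Of 12 genes of its core and regulators, 0 were higher and 9 lower in each Treg comparison, among them Polr3b at 46.9 ± 1.56 CPM in Treg, 75.4 ± 3.88 CPM in fresh CD5hi and 74.9 ± 1.35 CPM in fresh CD5lo cells. Maf1, its repressor, rose at rest, at 230 ± 24.2 against 139 ± 1.70 CPM in CD5hi and 244 ± 20.2 against 144 ± 2.58 CPM in CD5lo cells. Of the 12 genes, 5 were higher and 3 lower at rest in CD5hi cells, against 26.2% of all genes each way. In CD5lo cells 4 were higher and 6 lower at rest, against 26.9% and 27.3%. Of 14 genes of the RNA exosome, which trims the precursor, 2 were higher and 4 lower in Treg than in fresh CD5hi cells, and 1 and 6 against fresh CD5lo cells. For the exosome and polymerase III counts in Treg, the shares of all genes are 27.5% higher and 26.6% lower against fresh CD5hi cells. Against fresh CD5lo cells they are 29.2% and 29.4%. Genes of cytoplasmic ribosomal proteins, summed by symbol, stood at 66769 to 82729 CPM in Treg, 83454 to 115983 CPM in rested and 94031 to 105059 CPM in fresh naive libraries.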
